A study of Mus musculus with 3 samples.

Results

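Rod bipolar cells were the 1781 of 15242 deposited retinal cells to which the authors' cell table gives cluster 2. They made up 405 of 4478 cells of the wild-type (WT) library, 729 of 5952 of the rd10-vehicle library and 647 of 4812 of the rd10-TMB library. Where 3 values follow each other below, they belong to these libraries in this order, and 3 ratios are those of rd10-vehicle over WT, of rd10-TMB over WT and of rd10-TMB over rd10-vehicle. The choice used the deposited cluster number alone, which the authors derived from the most variable genes after a correction between conditions, so a gene that is higher in these cells than in other cells describes the cluster and was not tested.

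Retinas of C57BL/6J mice and of rd10 mice were dissociated, and the RNA of single cells was measured by droplet sequencing with unique molecular identifiers (UMIs, tags that count RNA molecules). The rd10 mouse carries a mutation in Pde6b, the gene of a subunit of the rod phosphodiesterase, which rods use and bipolar cells do not, and its rods degenerate. The WT and rd10-vehicle mice ate base chow, and the rd10-TMB mice ate chow with tamsulosin, metoprolol and bromocriptine, which act on α1-adrenergic, β1-adrenergic and D2-type dopamine receptors. All mice were 8 weeks old and had been reared in the dark, and the question was how the drug diet alters the transcriptome of the degenerating retina. Each group was 1 library, and the labels give 1 retina from each of 4 mice for each pool. The rd10 mice were female while the WT pool held both sexes, so that genotype, sex and pool cannot be told apart in any comparison with WT. Among the WT rod bipolar cells, 192 had UMIs of Xist and none of Y-linked genes, and 143 had the reverse. No group had a replicate. No test of a condition was made, and every interval below is a 95% interval for counting error only.

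Rod bipolar cells are the second neurons of the rod pathway. In darkness rods release glutamate, which acts on the metabotropic receptor mGluR6 on the dendrites of these cells and, through the G protein Go, holds the cation channel TRPM1 closed. Light stops the release and the cell depolarizes. Its axon terminal releases glutamate from ribbon synapses onto AII and A17 amacrine cells, and protein kinase C alpha is its classic marker. When rods die, rod bipolar cells lose their input, and they are known to withdraw dendrites and remodel.

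Sequencing yielded 18882951, 37002532 and 29192530 UMIs in the deposited WT, rd10-vehicle and rd10-TMB cells, of which 1964939, 2615688 and 2699522 were in rod bipolar cells. The median rod bipolar cell held 5032, 3638 and 4310 UMIs, and its median number of detected genes was 2226, 1813 and 2015. In cluster 0, the cells rich in Müller glia transcripts, WT cells were instead the shallowest, with medians of 6300, 8593.5 and 9454.5 UMIs. The mitochondrial share of UMIs had a median of 8.35%, 7.05% and 6.93% in rod bipolar cells. Of the barcodes, 25 occurred in more than 1 library and 5 rod bipolar cells carried such a barcode, but none was shared by rod bipolar cells of different libraries.

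The marker genes bore out the label. Prkca, the gene of protein kinase C alpha, stood at 2926, 2511 and 2875 CPM (counts per 1000000 UMIs), against 74.8, 32.8 and 42.3 CPM in all other cells. Sebox, a homeobox gene, stood at 901, 810 and 831 CPM against 6.56, 2.94 and 5.25 CPM in the other cells. Car8, of a carbonic anhydrase relative, and Vstm2b, of a membrane protein, were as clearly enriched. After each cell was thinned to 2000 UMIs, a Prkca UMI was found in 98.7%, 99.0% and 99.2% of rod bipolar cells, against 4.94%, 4.04% and 4.97% of the cells of cluster 0, where it should be absent. Thinning left out 19, 36 and 53 shallower rod bipolar cells. Sebox UMIs were in 78.5%, 76.0% and 78.6% of thinned rod bipolar cells and in at most 0.791% of those of cluster 0. Among genes with at least 300 UMIs, the highest ratios over the other cells also included the synaptic adhesion gene Lrrtm4, the Purkinje cell protein gene Pcp2 and Cfi, of complement factor I.

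Markers of other cells were low, with 1 exception that is shared by bipolar types. Of 12 cone bipolar markers 4 reached 20 UMIs, and their summed level of 710, 809 and 791 CPM came mainly from the calcium-binding protein gene Cabp5, at 663, 765 and 749 CPM, which rod bipolar cells are also known to express. The cone bipolar genes Scgn and Vsx1 each stayed at or below 9.63 CPM. None of the 6 ganglion cell markers and none of the 6 microglia markers reached 20 UMIs.

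The share of rod bipolar cells among recovered cells was 9.04% (interval 8.22 to 9.92), 12.2% (11.4 to 13.1) and 13.4% (12.5 to 14.4). These shares depended on the other cells counted. Among the bipolar clusters 2, 3, 6, 7, 8 and 10 alone, rod bipolar cells were 27.4%, 39.5% and 40.7%. Among cells with at least 1000 detected genes, they were 12.8% (11.6 to 14.0), 13.7% (12.7 to 14.6) and 15.5% (14.4 to 16.7), and the WT and rd10-vehicle intervals then overlapped. Fewer cells of another type and more rod bipolar cells cannot be told apart from a share.

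Few genes differed by 1.5-fold or more between libraries. Over the 3960 genes with at least 300 UMIs in rod bipolar cells, 53 (1.34%) were at least 1.5-fold higher and 19 (0.48%) at least 1.5-fold lower in rd10-vehicle than in WT. In rd10-TMB against WT, 41 (1.04%) were higher and 19 (0.48%) lower, and in rd10-TMB against rd10-vehicle 12 (0.303%) were higher and 8 (0.202%) lower. Both rd10 comparisons share the WT library, and the drug comparison shares the rd10-vehicle library. The minimum of 300 UMIs was set on the sum of the libraries, of which WT held the fewest UMIs. A gene found in WT alone thus needed a higher CPM to pass than one found in both rd10 libraries. The minimum therefore favoured genes higher in rd10. The median log2 ratio over all these genes was 0.01, 0.02 and 0.00 in the 3 comparisons, and the middle 90% of genes, from the 5th to the 95th percentile, lay between −0.32 and 0.37 for rd10-vehicle over WT. Ratios are of CPM with 1 UMI added to each count. Genes of free RNA from other cells can enter these numbers. Of the 2942 genes at least as high in rod bipolar cells as in the other cells, 32 (1.09%) were higher and 8 (0.272%) lower in rd10-vehicle than in WT. In rd10-TMB 23 (0.782%) were higher and 13 (0.442%) lower than in WT. In the drug comparison 5 (0.17%) were higher and 4 (0.136%) lower. Of the 5, 4 were haemoglobin genes whose UMIs lay almost all in 1 rd10-TMB cell. Without it 1 was higher, Ncoa6, of a nuclear receptor coactivator, at 59.5, 42.4 and 65.6 CPM, and the 4 lower were Ociad2, Nmt1, Ilrun and Prph.

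A small group of genes was almost absent from WT rod bipolar cells and present in rd10 cells. Prph encodes peripherin, an intermediate filament of peripheral and injured neurons that is unrelated to the photoreceptor gene Prph2. It had no UMI in the 405 WT cells, 202 UMIs (77.2 CPM) in rd10-vehicle and 138 UMIs (51.1 CPM) in rd10-TMB. Against a floor of 3 UMIs in the WT cells it was at least 50.6-fold higher in rd10-vehicle and at least 33.5-fold higher in rd10-TMB. Ociad2, of a mitochondrial and endosomal protein, stood at 2.04, 86.4 and 44.8 CPM, log2 ratios over WT of 5.09 (4.03 to 7.30) and 4.15 (3.07 to 6.36). Between the rd10 libraries both genes were lower with the drug diet, Prph by a log2 ratio of −0.59 (−0.92 to −0.28) and Ociad2 by −0.94 (−1.28 to −0.62).

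In the mouse genome, build GRCm38.p6, RefSeq places Prph at chr15:99053579-99058978 and Ociad2 at chr5:73322198-73338947. The 250 bases before the start site of each gene in RefSeq's promoter set are shown because the RNAs of these genes were near 0 in WT cells, present in both rd10 libraries and detected together in single cells. The window of Prph is chr15:99054924-99055173 on the plus strand and lies within the longer span that RefSeq gives the gene, and that of Ociad2 is chr5:73338948-73339197, read on the minus strand. Capitals mark matches to the motifs searched.
Prph: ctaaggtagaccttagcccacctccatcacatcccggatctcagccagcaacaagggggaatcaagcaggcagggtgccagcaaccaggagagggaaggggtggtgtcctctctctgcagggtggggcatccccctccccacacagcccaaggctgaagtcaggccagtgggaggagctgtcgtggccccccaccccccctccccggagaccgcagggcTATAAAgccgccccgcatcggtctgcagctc
Ociad2: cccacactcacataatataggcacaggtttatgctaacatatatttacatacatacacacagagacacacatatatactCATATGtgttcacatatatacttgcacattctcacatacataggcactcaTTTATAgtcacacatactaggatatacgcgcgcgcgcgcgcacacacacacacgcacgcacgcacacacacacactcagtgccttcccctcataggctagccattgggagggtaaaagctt

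Both strands were searched for 6 motifs. The STAT motif was searched as TTCNNNGAA and the AP-1 motif as TGANTCA. The OTX/CRX motif was searched as TAATCC and the homeodomain motif as TAATTA, which share their first letters. The E-box was searched as CANNTG and the TATA box as TATAAA. The Prph window held TATAAA from 31 to 26 bases before the start, and the Ociad2 window held it on the other strand from 121 to 116 bases before the start. The Ociad2 window also held CANNTG from 171 to 166 bases before the start. Neither window held the STAT, AP-1, OTX/CRX or homeodomain letters, which says only that these letters are not in these windows. Over 32851 windows of the same length, the 6 motifs in the order given were present in 7.02%, 6.75%, 6.25%, 4.84%, 66.2% and 12.4%. The match of a short motif is a description of the sequence and no evidence of a bound site.

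A2m and Cfi went with the same contrast in different ways. A2m, of the protease inhibitor alpha-2-macroglobulin, stood at 3.56, 94.0 and 50.01 CPM in rod bipolar cells, a log2 ratio over WT of 4.54 (3.66 to 6.05) without the drugs, and its ratio between the rd10 libraries was −0.91 (−1.22 to −0.60). It was also high in cluster 0, at 14.8, 195 and 144 CPM, and in bipolar clusters 8, at 41.2, 108 and 50.6 CPM, and 10, at 0, 60.7 and 19.1 CPM, and the part of free RNA in its level in rod bipolar cells was not tested. Cfi stood at 26.0, 93.7 and 91.5 CPM, log2 ratios of 1.83 (1.41 to 2.32) and 1.80 (1.38 to 2.28) over WT. Unlike A2m, it did not differ beyond counting error between the rd10 libraries, with a log2 ratio of −0.03 (−0.29 to 0.23), and in all other cells together it was at 0.0591, 0.378 and 0.717 CPM. Cfi was thus a gene of rod bipolar cells in all 3 libraries, and the higher level in rd10 was in a gene that already marked the cluster.

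**Figure D1:**
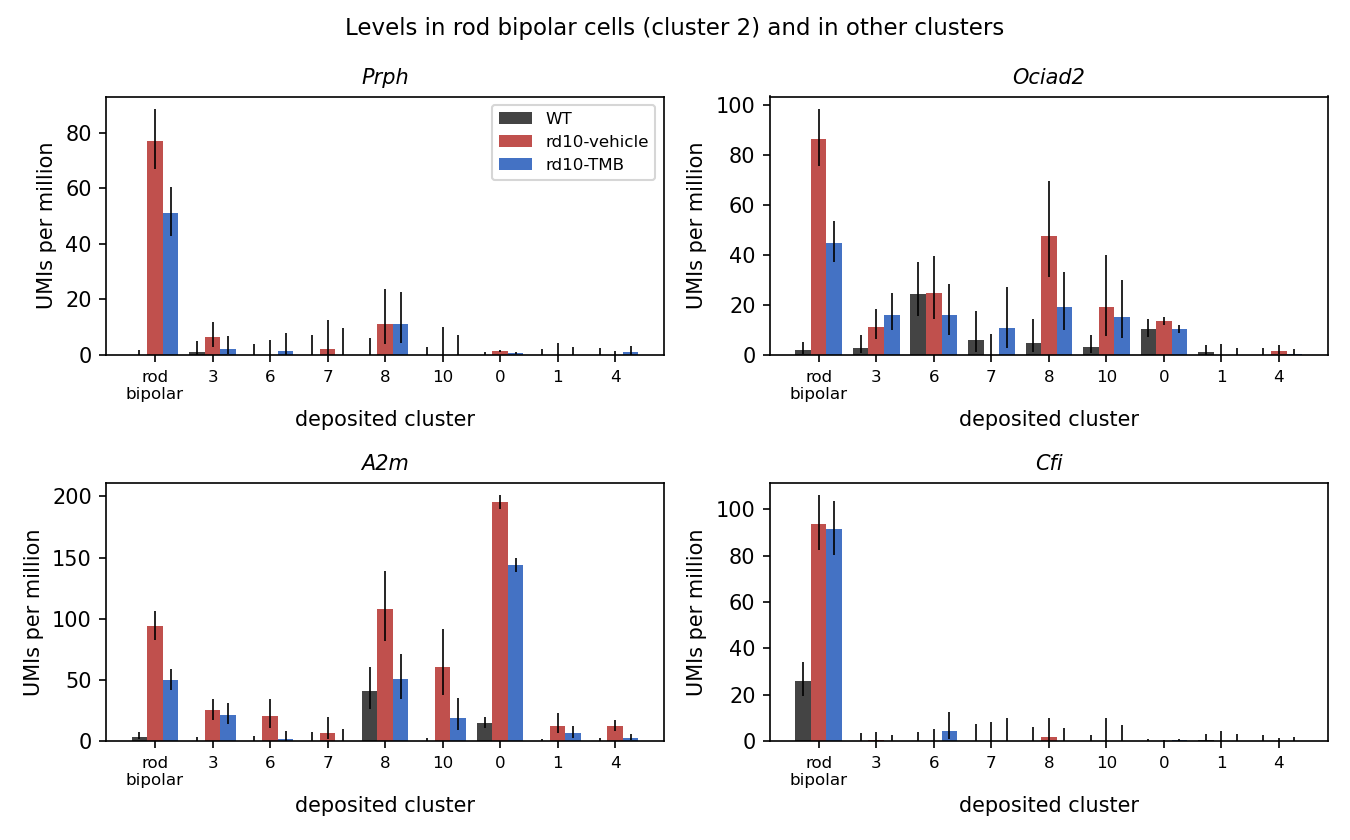
CPM of Prph, Ociad2, A2m and Cfi (1 panel each) in rod bipolar cells (cluster 2), other bipolar clusters (3, 6, 7, 8, 10) and clusters 0, 1 and 4, with 1 bar per library and 95% Poisson intervals. Prph and Cfi had their highest bars in cluster 2, at 77.2 and 93.7 CPM in rd10-vehicle, whereas A2m was higher in cluster 0, at 195 CPM.

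Other bipolar clusters were set beside these values. The most alike clusters were 3 and 6, with Pearson correlations of log2 CPM with rod bipolar cells of 0.808 and 0.796 over the 3960 genes. Prph reached 6.30 CPM in cluster 3 of rd10-vehicle and had no UMI in cluster 6 of that library. In cluster 8 it stood at 0, 10.97 and 11.1 CPM. Ociad2 stood at 2.80, 11.2 and 16.1 CPM in cluster 3 and at 24.5, 24.7 and 15.8 CPM in cluster 6. A2m stood at 0, 25.2 and 21.5 CPM in cluster 3 and at 0, 20.4 and 1.44 CPM in cluster 6. In cluster 0, Prph stood at 0, 1.35 and 0.536 CPM, so that the cells with by far the most UMIs in the rd10 libraries held little of it. Whether the clusters differ in their response was not tested, since each has 1 library per group.

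In single cells these genes were detected together. Of rd10-vehicle rod bipolar cells, 96 had a Prph UMI, 152 an Ociad2 UMI and 155 an A2m UMI. Prph and Ociad2 were found together in 40 cells, where the product of their shares gives 20.02, Prph and A2m in 46 cells against 20.4, and Ociad2 and A2m in 61 cells against 32.3. With Apoe, an abundant gene of Müller glia, Prph was found in 41 cells against 41.2, Ociad2 in 70 against 65.3 and A2m in 69 against 66.6. In rd10-TMB the 3 pairs were found in 17 cells against 7.57, 19 against 7.93 and 26 against 11.2, and those with Apoe in 25 against 20.4, 37 against 28.7 and 32 against 30.1. Cells with 2 of the 3 genes were somewhat deeper than cells with none, with medians of 3812 and 3558 UMIs in rd10-vehicle and of 5051.5 and 4238.5 UMIs in rd10-TMB. The median cell with a Prph UMI held 1 of them, and the highest held 11 in each rd10 library.

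At least 2 of Prph, Ociad2 and A2m, 3 genes chosen after their values were seen, were detected in 1 of 405 WT cells (0.247%, 0.00625 to 1.37), 95 of 729 rd10-vehicle cells (13.0%, 10.7 to 15.7) and 50 of 647 rd10-TMB cells (7.73%, 5.79 to 10.1). At 2000 UMIs per cell the numbers were 0 of 386, which allows a share of up to 0.951%, then 49 of 693 (7.07%, 5.28 to 9.24) and 17 of 594 (2.86%, 1.68 to 4.54). The rd10-TMB share was below the rd10-vehicle share in both counts. Before thinning, the median rod bipolar cell held more UMIs in rd10-TMB than in rd10-vehicle. The Müller glia markers were also lower in rod bipolar cells of rd10-TMB mice than of rd10-vehicle mice. Among cells without a UMI of Glul, Rlbp1 or Apoe the shares were 1 of 287 (0.348%), 30 of 271 (11.1%, 7.59 to 15.4) and 14 of 299 (4.68%, 2.58 to 7.73), and the rd10 intervals then overlapped slightly. Of the 192 WT cells that had Xist but lacked Y-linked UMIs, none had 2 of the genes, which allows a share of up to 1.90%. With all UMIs, at least 1 of the 3 genes was found in 1.98%, 38.7% and 26.7% of cells. In cluster 0, thinned Prph detection was 0%, 0.206% and 0.240%, against 0%, 8.95% and 5.72% in rod bipolar cells.

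**Figure D2:**
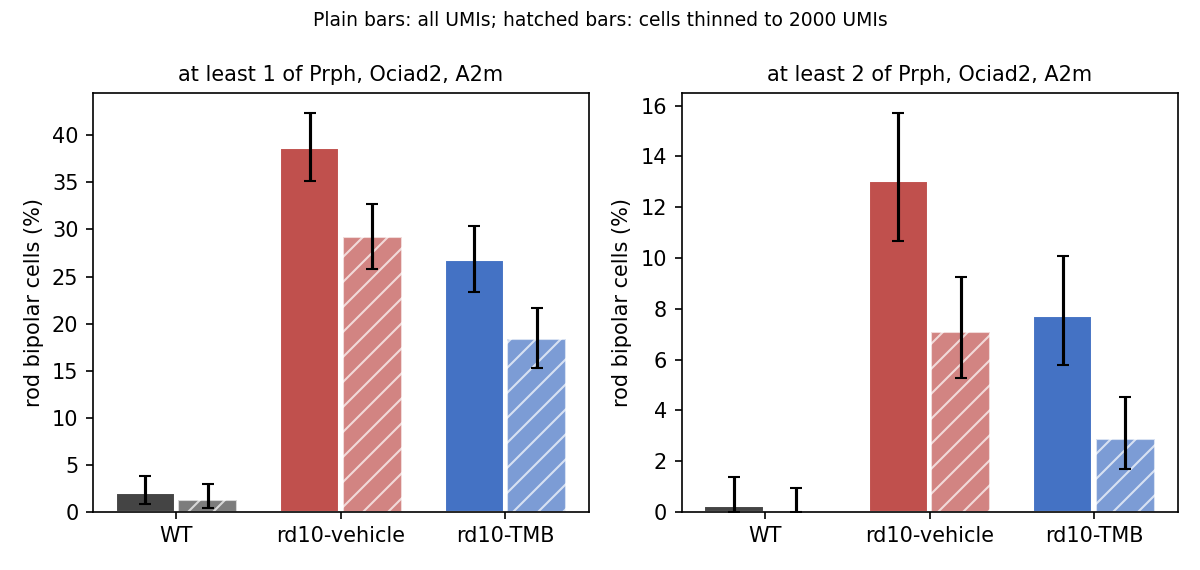
Percent of rod bipolar cells with a UMI of at least 1 or at least 2 of Prph, Ociad2 and A2m in each library, plain bars for all UMIs and hatched bars for cells thinned to 2000 UMIs, with 95% Clopper-Pearson intervals. The shares were near 0 in WT, and in each pair of bars the rd10-vehicle share was the highest.

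Cells with at least 2 of the 3 genes carried further genes at higher levels than the cells with none. Gap43, of a growth cone protein of regrowing axons, stood at 152 CPM in the 95 positive and 18.0 CPM in the 447 negative cells of rd10-vehicle, a log2 ratio of 3.05 (2.40 to 3.79). The ratio was 4.37 (3.42 to 5.59) in rd10-TMB, from 50 and 474 cells. Over all rod bipolar cells Gap43 had 3, 128 and 57 UMIs. After thinning it was found in 0%, 7.65% and 3.87% of them, and in more cells of cluster 0, at 7.51%, 16.4% and 15.9%. Rgs17, of a regulator of G protein signalling, had ratios of 2.56 and 2.24 in the rd10 libraries, Sulf2, of a heparan sulfatase, 1.96 and 1.71, and Fgf2, of a survival factor for retinal neurons, 1.81 and 2.52. Stat3, of the transcription factor downstream of cytokine receptors, had 1.24 and 1.42, and Socs3, its feedback inhibitor, 1.39 and 2.10. The injury-linked transcription factor gene Atf3 had 1.80 and 1.57, and in cluster 0 it stood at 103, 733 and 552 CPM. Other immediate-early genes differed in direction. Fos had −0.73 (−1.33 to −0.25) and −0.22 (−0.94 to 0.34), Jun −0.04 and 0.18, and Egr1 −0.24 and −0.03, the last 4 with intervals that cover 0, while Junb had 0.60 (0.13 to 1.02) and 0.55 (−0.23 to 1.16). Among genes linked to axon regrowth, Klf7 had ratios of 0.25 (−0.68 to 0.98) and 0.76 (−0.19 to 1.48), and Sprr1a and Sox11 had no UMI in either set of cells.

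In rd10-vehicle, 20 genes were picked among 5448 with at least 50 UMIs, by the lower bound of the interval of the ratio, highest first, and 15 more by the upper bound, lowest first. In rd10-TMB, which the choice of these 20 did not use, 19 of the 20 had a ratio of the same direction, and in 14 the interval lay away from 0. Their median was 1.27 in rd10-vehicle, where they were chosen, and 1.15 in rd10-TMB. Of the 15 picked as lowest, 11 had the same direction in rd10-TMB and 2 an interval away from 0, with medians of −1.53 and −0.40. The same shares over all 5448 genes were not computed. Whether the counts of either set exceed those of genes in general was therefore not tested. Identity genes differed less between positive and negative cells and in both directions. In rd10-vehicle and rd10-TMB, Prkca had ratios of −0.15 (−0.26 to −0.04) and −0.18 (−0.30 to −0.06), and Sebox of −0.18 (−0.38 to 0.01) and −0.26 (−0.50 to −0.04). Vstm2b had 0.24 (0.05 to 0.42) and 0.16 (−0.05 to 0.35), and Car8 0.11 (−0.05 to 0.26) and −0.00 (−0.19 to 0.17). Of 3 Müller glia genes, Apoe had ratios of −0.11 (−0.56 to 0.28) and 0.28 (−0.31 to 0.77), Glul of 0.26 (−0.26 to 0.71) and 0.73 (0.16 to 1.20), and Clu of 0.92 (0.48 to 1.33) and 0.26 (−0.61 to 0.91). Glul in rd10-TMB and Clu in rd10-vehicle were thus higher in the positive cells, and the part of free RNA in the genes of these cells was not tested.

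**Figure D3:**
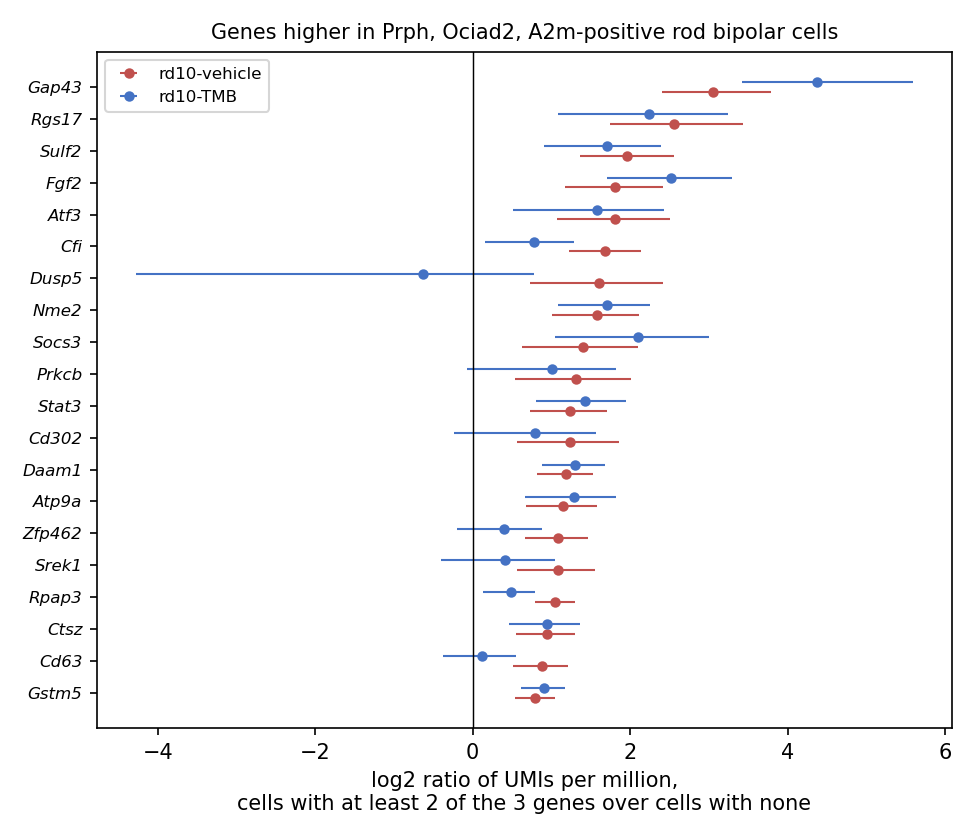
Log2 ratio of CPM, with 95% counting intervals, in cells with at least 2 of Prph, Ociad2 and A2m over cells with none, for the 20 genes chosen in rd10-vehicle, with rd10-TMB beside it. In 19 of the 20 genes the rd10-TMB point lay on the same side of 0, and Dusp5 was the exception.

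First by the upper bound came Vax2, of a homeobox factor of the ventral retina, and then Vax2os, its opposite-strand transcript. Vax2 was at 21.8 CPM in positive and 78.0 CPM in negative cells of rd10-vehicle, a log2 ratio of −1.68 (−3.08 to −0.82), and its ratio in rd10-TMB was −2.01. Vax2os had ratios of −1.14 (−1.64 to −0.72) and −0.77. Whether reads of one were counted for the other was not tested. Put the other way, at 2000 UMIs per cell at least 1 of Prph, Ociad2 and A2m was found in 50 of 244 rd10-vehicle cells with a Vax2 or Vax2os UMI (20.5%, 15.6 to 26.1) and in 152 of 449 without (33.9%, 29.5 to 38.4). In rd10-TMB the shares were 14.5% (10.1 to 19.9) and 20.5% (16.6 to 24.9), whose intervals overlap. Across libraries, thinned detection of Vax2 or Vax2os was 32.9%, 35.2% and 36.03%. Since Vax2 and Vax2os were picked in rd10-vehicle, the shares of that library restate the choice.

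The genes of the light response were within 1.5-fold in the 3 libraries. Of 13 genes of the mGluR6 cascade, 12 had at least 20 UMIs, and none was 1.5-fold higher or lower in any comparison. Of all 10777 genes with at least 20 UMIs, 8.72% were 1.5-fold higher and 5.72% lower in rd10-vehicle than in WT. The shares were 7.27% and 6.29% for rd10-TMB over WT, and 4.04% and 5.92% in the drug comparison, and the counts of list members below are to be read against them. The median log2 ratios of the cascade were −0.08, −0.04 and −0.01. For rd10-vehicle over WT, 7 of the 12 intervals lay below 0 and 1 above, against 9.37% below and 10.7% above among the 3960 genes. In the other comparisons 3 and 2 lay below and 3 and 2 above. Grm6, the gene of mGluR6, stood at 716, 756 and 705 CPM, and Trpm1, of the channel, at 3819, 3613 and 3514 CPM. The spread around these medians was uneven among the G protein subunits. Gnb3, the β subunit used in this cascade, stood at 1588, 2182 and 1946 CPM, log2 ratios of 0.46 (0.40 to 0.52) and 0.29 (0.23 to 0.36) over WT. Gng13, its γ partner, stood at 5139, 4615 and 5605 CPM and so was lowest in rd10-vehicle, with a log2 ratio of 0.28 (0.25 to 0.31) between the rd10 libraries.

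Identity genes and transcription factors were likewise within 1.5-fold. All 6 identity genes were measured, and their medians were −0.16, −0.06 and 0.12. Of their 6 intervals, 5 lay below 0 and none above for rd10-vehicle over WT. Of 11 transcription factors 10 were measured, with medians of 0.01, 0.02 and 0.01. Neurod1 stood at 311, 406 and 381 CPM and was higher in both rd10 libraries, by 0.38 and 0.29 on the log2 scale.

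**Figure D4:**
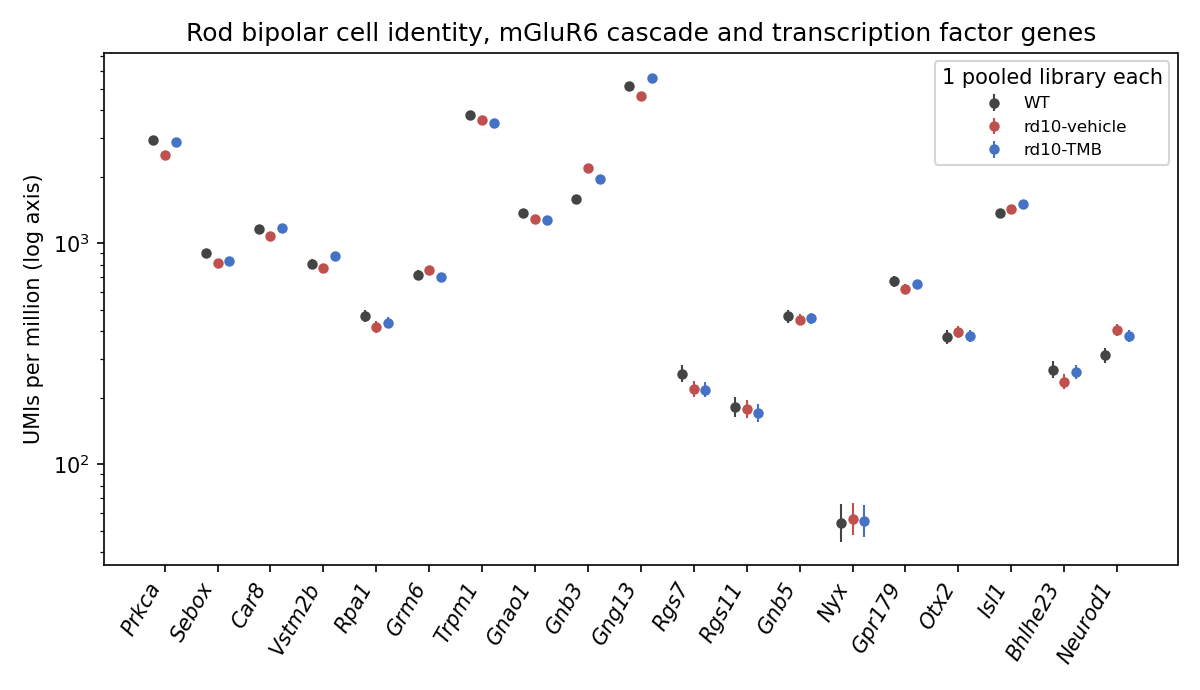
CPM on a log axis of genes of identity, the mGluR6 cascade and the transcription factors in rod bipolar cells, with 1 point per pooled library and 95% Poisson intervals. The points of most genes nearly coincide, as for Grm6 at 716, 756 and 705 CPM, while those of Gnb3 lie apart, at 1588, 2182 and 1946 CPM.

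Genes of synaptic output and of inhibition had list medians slightly below 0 in both comparisons with WT. Of 23 ribbon synapse and release genes, all measured, 1 was 1.5-fold lower in rd10-vehicle than in WT and none in the other comparisons, and the medians were −0.11, −0.15 and 0.00. Unc13b, of a vesicle priming factor, stood at 310, 234 and 238 CPM, with log2 ratios of −0.41 and −0.38 over WT. Snap25, of a SNARE protein, stood at 1377, 1178 and 1175 CPM, and Slc17a7, of the vesicular glutamate transporter, at 500, 391 and 434 CPM. Cplx3, of the ribbon complexin, differed less, at 1419, 1384 and 1324 CPM. Of 14 inhibitory receptor genes 10 were measured, with medians of −0.14, −0.16 and 0.01. The GABA-C receptor genes Gabrr1 and Gabrr2 stood at 385, 353 and 346 CPM and at 262, 216 and 233 CPM. The one member 1.5-fold higher over WT was Gabrb1, which had 3, 10 and 13 UMIs.

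Of the 14 potassium and HCN channel genes 9 were measured, with medians of −0.18, −0.13 and 0.00, of which 0, 1 and 1 were 1.5-fold higher and 1, 2 and 1 lower. Kcnab2, of a β subunit of voltage-gated potassium channels, was at 155, 106 and 98.9 CPM, log2 ratios of −0.54 (−0.78 to −0.30) and −0.64 (−0.89 to −0.40) over WT. Of 28 adhesion and wiring genes 21 were measured, with medians of −0.08, −0.04 and 0.04. In the 3 comparisons 0, 1 and 2 of them were 1.5-fold higher and 2, 1 and 1 lower. Nrxn3, of a presynaptic neurexin, stood at 1068, 1007 and 851 CPM and had a log2 ratio between the rd10 libraries of −0.24 (−0.33 to −0.16).

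Calcium and kinase C genes had medians of −0.04, 0.02 and 0.02 over 15 of 16 measured members, of which 2 were 1.5-fold higher in each comparison and 1, 1 and 0 lower. Prkcb, the β isoform of protein kinase C, stood at 13.2, 40.5 and 31.5 CPM, log2 ratios of 1.57 (0.98 to 2.29) and 1.21 (0.60 to 1.94) over WT, and it was among the genes higher in the positive cells. Atp2b1, of a plasma membrane calcium pump, stood at 1739, 2186 and 1983 CPM. Camk2d, of a calmodulin-dependent kinase, was lower in both rd10 libraries, at 436, 350 and 348 CPM.

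Among the receptors that the diet targets, 4 of 13 reached 20 UMIs in rod bipolar cells. Adrb1, the β1-adrenergic receptor that metoprolol blocks, stood at 349, 291 and 275 CPM, with log2 ratios over WT of −0.27 (−0.42 to −0.11) and −0.35 (−0.50 to −0.20). Drd2, a D2-type dopamine receptor activated by bromocriptine, stood at 136, 116 and 116 CPM. Both were thus detected in these cells with and without the drugs, and their log2 ratios between the rd10 libraries were −0.08 (−0.23 to 0.07) and 0.00 (−0.23 to 0.23). The median of the 4 was −0.60, −0.29 and −0.02, and 0, 0 and 1 of them were 1.5-fold higher and 2, 1 and 0 lower. Drd4 had 15, 6 and 26 UMIs.

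The adenylyl cyclase and PKA genes, which carry the signal of these receptors, held Adcy1, one of the genes lower in both rd10 libraries. Of 25 genes 19 were measured, of which 1, 2 and 1 were 1.5-fold higher and 2, 2 and 1 lower, and the medians were −0.13, −0.23 and −0.03. Adcy1, of a calcium-stimulated adenylyl cyclase, stood at 78.9, 36.7 and 39.3 CPM, log2 ratios of −1.10 (−1.49 to −0.73) and −1.002 (−1.38 to −0.64) over WT. Adcy1 did not differ between the rd10 libraries beyond counting error, with a log2 ratio of 0.10 (−0.31 to 0.51). In cluster 3 Adcy1 stood at 20.5, 4.20 and 14.6 CPM, with log2 ratios of −2.13 (−3.88 to −0.94) and −0.48 (−1.46 to 0.46) over WT and of 1.65 (0.41 to 3.41) between the rd10 libraries. In cluster 6 it stood at 26.8, 2.91 and 11.5 CPM. Pde4d, of a cAMP phosphodiesterase, had the opposite order, at 4.58, 33.6 and 25.2 CPM, a log2 ratio of 2.74 (1.89 to 4.05) for rd10-vehicle over WT. Gnas, of the stimulatory G protein, stood at 754, 986 and 898 CPM.

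Further genes at the ends of the ranking included Tmsb10, of an actin-binding thymosin, at 1619, 1077 and 1462 CPM. It was lower than WT in rd10-vehicle, by a log2 ratio of −0.59 (−0.66 to −0.51), and by only −0.15 (−0.21 to −0.08) in rd10-TMB, and its ratio between the rd10 libraries was 0.44 (0.37 to 0.51). Mdga1, of an adhesion molecule that binds neuroligins, stood at 107, 60.4 and 82.6 CPM. Nf2, of the tumour suppressor merlin, stood at 53.9, 104 and 75.6 CPM, and Ctsz, of a lysosomal cathepsin, at 88.0, 151 and 129 CPM. Nmt1, of an N-myristoyltransferase, was lower in rd10-TMB alone, at 134, 146 and 85.2 CPM, and it was lower there in the other cells too, at 141, 97.1 and 68.1 CPM. The long non-coding RNA 5730507C01Rik stood at 77.9, 145 and 156 CPM.

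Immediate-early genes, which neurons and glia switch on after stimulation or stress, had by number the most members past the fold limit in both comparisons with WT. By share, marker lists of other cells came first in rd10-vehicle over WT. All 8 Müller glia, 7 cone and 4 lens markers measured were higher there. Of 16 immediate-early genes 13 were measured. Of these, 10 were higher and none lower in rd10-vehicle than in WT, against 8.72% and 5.72% of all genes with at least 20 UMIs. Of the 13 genes, 7 reached 300 UMIs. In rd10-TMB 9 were higher and 1 lower than in WT, and between the rd10 libraries 4 were lower and none higher. The medians were 1.26, 1.16 and −0.23. Jun stood at 48.3, 117 and 124 CPM, Junb at 30.0, 113 and 71.1 CPM, and Atf3 at 3.56, 40.1 and 26.3 CPM. The same genes were far higher in the other cells, with Jun at 1484, 4724 and 4402 CPM, and Müller glia markers moved with them in rod bipolar cells, as given below. In rod bipolar cells without a UMI of Glul, Rlbp1 or Apoe the medians were 0.95, 0.79 and −0.13, and those of clusters 3 and 6 over WT in rd10-vehicle were 0.02 and −0.30. The part of free RNA in this result was not tested further.

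MHC class I and interferon genes were near the limit of detection. Of 17 genes 8 were measured, none of which reached 300 UMIs. Of the 8, 5 were higher and none lower in rd10-vehicle than in WT, 6 were higher and 1 lower in rd10-TMB than in WT, and 1 was higher and 2 lower in the drug comparison, with medians of 0.88, 0.80 and −0.22. H2-D1, an MHC class I heavy chain, stood at 17.3, 38.2 and 32.6 CPM, and Irf9, of an interferon-responsive factor, had 8, 34 and 30 UMIs. Stat3, the gene found above in the positive cells, stood at 38.2, 95.6 and 67.4 CPM, a log2 ratio of 1.31 (0.95 to 1.72) for rd10-vehicle over WT and of −0.50 (−0.79 to −0.22) between the rd10 libraries. In the other cells H2-D1 stood at 98.9, 237 and 194 CPM and Stat3 at 47.4, 108 and 82.9 CPM.

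Of 18 cell death regulators 15 were measured, with medians of −0.04, −0.07 and 0.12, and 3, 3 and 2 of them were 1.5-fold higher and none lower. Bax, of a mitochondrial pore-forming protein, stood at 93.1, 102 and 105 CPM. Heat shock and chaperone genes had medians of 0.02, 0.01 and −0.06 over 12 of 14 members, of which 1, 2 and 1 were higher and 0, 0 and 1 lower. Dnaja1, of an HSP70 co-chaperone, stood at 1522, 1073 and 1171 CPM. Clock genes had medians of −0.02, 0.02 and 0.04 over 15 of 16 members, of which 1, 1 and 0 were higher and 0, 1 and 1 lower. Dbp, a clock output gene, stood at 608, 651 and 668 CPM.

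Mitochondrially encoded transcripts were lower in both rd10 libraries, and nuclear subunit genes of complex I were slightly higher in rd10-TMB. Glycolysis genes had medians of −0.00, 0.01 and −0.02 over all 16 members. Ldha, of lactate dehydrogenase A, stood at 247, 167 and 187 CPM, and Aldoc, an aldolase that is also a Müller glia gene, at 40.7, 77.6 and 73.3 CPM. The 13 mitochondrially encoded genes had medians of −0.20, −0.29 and −0.08, and the intervals of 13 of 13 lay below 0 in both comparisons with WT, as did 9.37% and 10.2% of the 3960 genes. Their sum was 83621, 71446 and 71357 CPM. The 37 measured nuclear genes of complex I had medians of −0.02, 0.14 and 0.17, none past 1.5-fold, and between the rd10 libraries 21 intervals lay above 0 and none below, against 7.45% above and 6.14% below among the 3960 genes. Their sum was 13878, 13331 and 15222 CPM. The 43 measured subunits of complexes II to V had medians of −0.08, 0.07 and 0.13, and the 91 measured cytosolic ribosomal protein genes 0.07, 0.13 and 0.06. In clusters 3 and 6 the complex I medians between the rd10 libraries were 0.08 and 0.14. The mitochondrially encoded medians of rd10-vehicle and rd10-TMB over WT were −0.21 and −0.17 in cluster 3 but 0.15 and 0.03 in cluster 6.

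**Figure D5:**
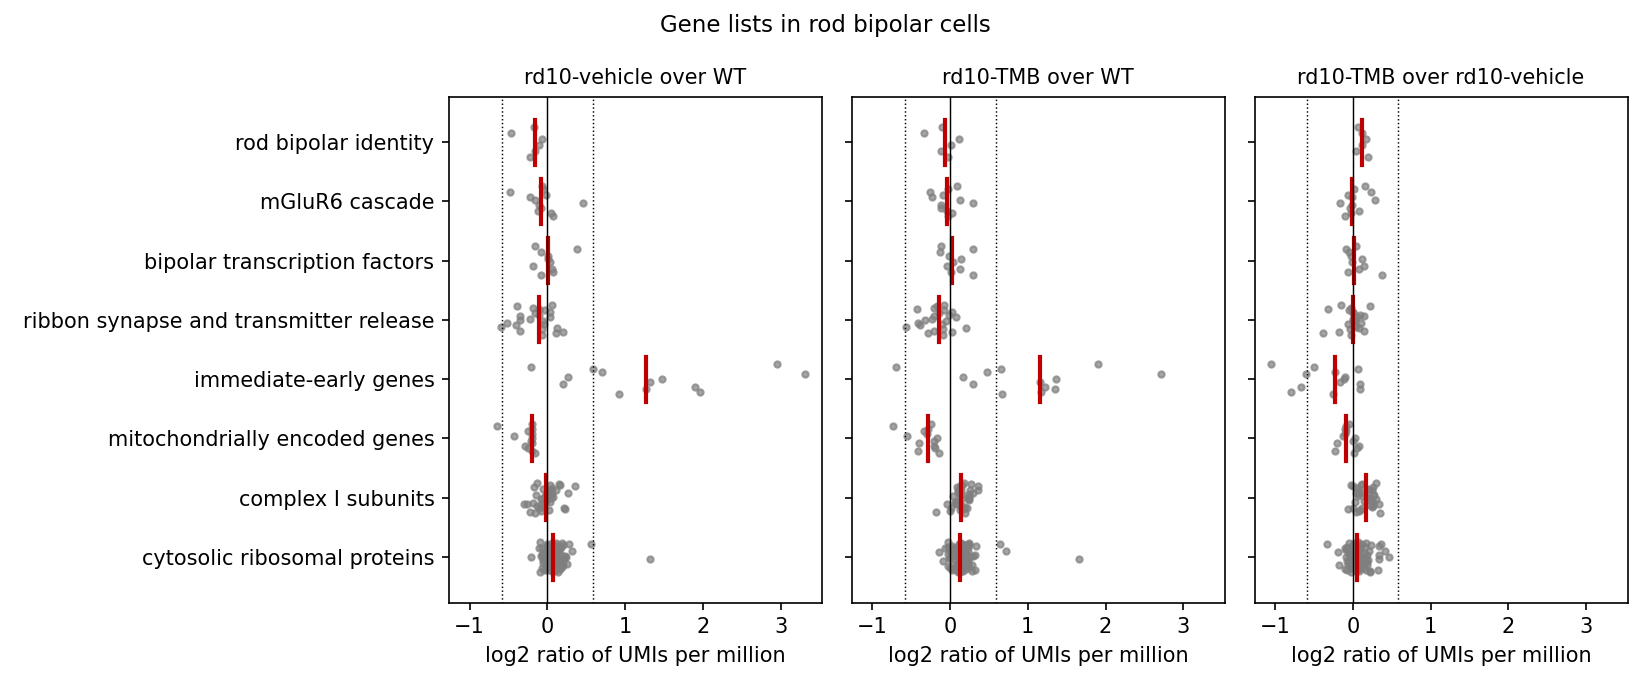
Log2 ratio of CPM in rod bipolar cells for the members of each list with at least 20 UMIs (grey points), with the list median in red, in the 3 comparisons, with dotted lines at 1.5-fold. The immediate-early genes stand to the right of 0 in both comparisons with WT, with medians of 1.26 and 1.16, and the mGluR6 cascade lies close to 0 in each.

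Transcripts of other cells were present in rod bipolar cells at levels that differed by library. Of 11 Müller glia markers, all 8 measured were higher in rd10-vehicle than in WT and 6 in rd10-TMB, with summed levels of 108, 478 and 319 CPM, and Gfap and Lcn2 had no UMI in WT. Apoe, of a lipid carrier made by these glia, stood at 26.0, 177 and 120 CPM in rod bipolar cells and at 3997, 17326 and 16404 CPM in the other cells. Of 14 rod markers, 8 were lower in rd10-vehicle than in WT, none was past the limit in rd10-TMB against WT, and the drug comparison had 7 higher, with sums of 1826, 1254 and 1710 CPM. The 7 cone markers summed to 114, 221 and 153 CPM, and 7, 2 and 0 of them were higher and 0, 0 and 3 lower in the 3 comparisons. The 4 lens markers summed to 3.56, 97.9 and 62.2 CPM. The amacrine list had 2 measured members with a sum of 22.4, 9.94 and 9.26 CPM, and the horizontal, endothelial and pericyte lists had 1 each. These genes are not attributed to rod bipolar cells here, and their part in the other results was not tested beyond the values given.

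A single cell decided the haemoglobin genes. The 4 genes summed to 0, 1.91 and 1425 CPM, and 1 rd10-TMB cell with 8484 UMIs held 3846 of the 3847 haemoglobin UMIs of its library. Without this cell, 3952 genes kept 300 UMIs, of which 8 were higher and 8 lower in the drug comparison, in place of 12 and 8, and 35 were higher and 21 lower in rd10-TMB than in WT. Of the 2936 of them at least as high as in the other cells, 17 were higher and 15 lower in rd10-TMB than in WT, in place of 23 and 13. With each cell weighted equally instead of by its UMIs, 19 genes were higher and 7 lower in the drug comparison.

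Variation among the rod bipolar cells of a library was measured as the variance of thinned UMI counts over their mean, which is 1 for pure counting. The median was 1.02 in each library over 3945 genes, but at the low counts of most genes this ratio is near 1 whatever the variation. The highest ratios, ranked by the lowest of the 3 libraries, were those of Gm42418 (11.9, 8.31 and 8.08) and of the nuclear RNA Malat1 (6.66, 8.77 and 7.99), followed by mitochondrial transcripts such as mt-Co3 (2.75, 2.91 and 3.69). Pcp2, a regulator of Go signalling and a gene of these cells, had 1.76, 2.10 and 1.85, and Mt1, of a metallothionein, 1.56, 1.70 and 1.66.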

How the data were processed

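The study measured single-cell RNA in 3 pooled libraries. The authors aligned reads to mm10, and the submitters' processing notes name Cell Ranger 6.0.1 and Seurat 3.2.2. Per the study's methods, Scrublet had removed doublets before deposit, so none were called again, libraries were aligned with Harmony, and genes were compared over single cells with MAST, whose results are left aside here. The lowest number of detected genes in any deposited cell was 500. The study's text names fewer mice for the rd10 pools than the labels.

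Expression was deposited on a natural log scale, as ln of 1 plus a gene's UMIs scaled to 10000 in its cell. The deposited cell table gives the UMI count of each cell, and with it each entry was turned back into a UMI count that was whole within 0.001. The sums equalled the deposited count of the cell in all 15242 cells. UMIs of cluster 2 were summed per library (Python 3.11.15, numpy 2.4.6, pandas 2.3.3, scipy 1.17.1, matplotlib 3.10.9). Ratios are log2 of CPM with 1 UMI added, with exact conditional intervals, levels have exact Poisson intervals and shares Clopper-Pearson intervals. Genes needed 300 UMIs over the libraries, and list members 20, so that low members can pass 1.5-fold by counting error. These steps were tested on simulated data.

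Members and lists were chosen with earlier results of these data known. Named were list members with at least 20 UMIs, the 10 highest and lowest genes per comparison among those at least as high as in the other cells, the 5 highest and lowest of the rest, the 15 most variable genes and the 20 highest over other cells. Prph, Ociad2, A2m, Gap43, Fgf2, Rgs17, Sulf2, Socs3, Stat3, Vax2 and Vax2os, the comparison of cells with and without these genes, and the exclusion of haemoglobin cells and of cells with the 3 genes were chosen after seeing the data. Alternatives changed scaling, added count, gene and cell filters, depth and WT cells. RefSeq positions matched 16895 of 18545 symbols, and the files' build, mm10, corresponds to GRCm38. Values of some single genes are not reported here.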

Additional observations from a re-analysis of the deposited data

How the results depend on the processing

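No paired analysis was possible because each group is 1 library, and for the same reason no library could be left out. Counts below are genes higher and lower in rd10-vehicle over WT, then rd10-TMB over WT, then rd10-TMB over rd10-vehicle. They were 252 and 143, 202 and 162, 72 and 112 with a minimum of 100 UMIs, 2859 and 2135, 1586 and 2217, 1784 and 2468 with 1 UMI, and 7 and 4, 5 and 1, 2 and 0 with 1000 UMIs. At 2-fold they were 16 and 4, 17 and 2, 6 and 0. In cells without a UMI of Glul, Rlbp1 or Apoe they were 88 and 58, 70 and 64, 38 and 56, and in cells thinned to 2000 UMIs 115 and 59, 104 and 72, 21 and 40. Both settings hold fewer UMIs. Against the WT cells that had Xist but lacked Y-linked UMIs they were 65 and 39, then 72 and 43. Among genes at least as high as in the other cells they were 32 and 8, 23 and 13, 5 and 4, and without the haemoglobin-rich cell 29 and 8, 17 and 15, 1 and 4. Weighting cells equally gave 19 higher in rd10-TMB over rd10-vehicle, and leaving out cells with Prph, Ociad2 or A2m gave 13 lower there. The cause of these moves was not tested. Size factors, other totals and the added count moved no count past 1.5 times and no split by 10 points.

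The share of rod bipolar cells was 10.3%, 21.6% and 21.3% without the Müller glia clusters, 27.4%, 39.5% and 40.7% among bipolar clusters, and 12.8%, 13.7% and 15.5% among cells with at least 1000 genes. The 234 list medians recomputed all stayed within the limits set. A median past 1.5-fold had only to stay past it in the same direction, and any other within the median bounds of its members' counting intervals. The immediate-early genes spanned 0.95 to 1.33, 0.79 to 1.18 and −0.34 to −0.13. Of 897 values of single genes 869 moved within their counting interval, 28 moved beyond it and none changed sign as a called value. Without cells having a UMI of Prph, Ociad2 or A2m, Stat3 in rd10-vehicle over WT was 0.78 and Cfi 1.22. With 1 pool per group, differences between animals, sexes or preparations cannot be told apart from genotype or diet.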
